A study of Rattus norvegicus with 8 samples.

Results

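The genes described here are nuclear genes of respiratory complexes II, III and IV, of cytochrome c and of ATP synthase (complex V), taken by symbol from a list of 41 genes and read from a table of raw counts with 17055 rows. Of the 41, 38 had a row in the table and 37 passed the filter on low counts and were tested, among 10522 genes tested in all. Uqcr10, Cox6b1 and Cox7a1 had no row under those symbols and are not analysed here. Atp5f1, the b subunit of the ATP synthase stalk, had a row that was listed at 0 in all 8 libraries. The members came from the diaphragm of Sprague-Dawley rats, collected 16 weeks after surgery. In 4 animals (MI, replicates 1 to 4) the left anterior descending coronary artery had been tied off to cause a myocardial infarction, and 4 animals (Sham, replicates 5 to 8) had the thoracotomy without the tie. Each animal gave 1 library of total RNA. The labels give neither the animals' sex and age at surgery nor a measure of the infarct.

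The respiratory chain passes electrons from metabolic fuels to oxygen across the inner mitochondrial membrane and uses the energy to pump protons. Complex II, succinate dehydrogenase, feeds electrons from the citric acid cycle into the ubiquinone pool without pumping. Complex III moves them from ubiquinone to cytochrome c, complex IV hands them from cytochrome c to oxygen, and ATP synthase lets protons flow back to make ATP. The diaphragm contracts with every breath and is rich in mitochondria. Complexes III, IV and V also hold subunits encoded by the mitochondrial genome, and none of those had a row in the table under the symbols searched.

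The libraries held from 7941402 to 24967251 counts, and values are given as counts per 1000000 (CPM) after TMM scaling. The skeletal muscle markers Acta1 and Ckm were abundant in every library (at least 41268 and 25508 CPM). Of 7 cardiac genes searched, 4 were tested, among them Myh6 at 34.4 to 126.7 CPM in MI and 3.28 to 71.0 in Sham (log2 fold change 1.40 ± 0.99, adjusted p = 0.707), while Myl7 was listed at 0 and Nppa and Nppb did not pass the filter. The other tested cardiac genes went both ways, with log2 fold changes of 0.60 ± 0.49 for Myl4, -0.30 ± 0.34 for Tnni3 and -0.58 ± 0.55 for Tnnt2. Of 4 brown fat genes, Cidea was at 21.0 to 36.0 CPM, Dio2 and Elovl3 did not pass the filter and Ucp1 was listed at 0. The ribosomal genes Rpl8, Rps6 and Rplp2, which every cell uses, were also listed at 0 in all 8 libraries, so a 0 in this table does not show that a transcript was absent. The labels do not say that animals shared a batch, and p-values rest on the spread between 4 animals a group.

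Most members lay slightly higher in the MI diaphragms, and none passed the test. Of the 37 tested members, 34 had a log2 fold change (MI minus Sham) above 0, a direction that 48.7% of all tested genes shared. The median over the members was 0.18 on the log2 scale, or 13.1% higher, beside -0.0070 over all genes tested, and all 37 were within 25% of the Sham level. In edgeR's quasi-likelihood test 0 of the 37 had a Benjamini-Hochberg adjusted p under 0.05, where 0% of all tested genes did, and the members' adjusted p ran from 0.601 to 0.986. At an unadjusted p under 0.05, 15 members were higher in MI, where 3.67% of all tested genes were, and 0 members were lower, where 4.47% of all tested genes were. DESeq2 called 1 member, Cox5a (adjusted p = 0.0463), and 0.0855% of all tested genes as higher. The count of 15, beside 8.14% of all tested genes in either direction, went down to 3 (beside 4.87%) once Sham replicate 7 was omitted and to 7 (5.65%) once MI replicate 1 was. It was 8 after omitting MI replicate 4 (5.60%) or Sham replicate 6 (6.64%), and up to 20 (9.33%) after omitting Sham replicate 5. Because bulk tissue was profiled, more mitochondria-rich cells and more of these transcripts per cell cannot be told apart.

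**Figure D1:**
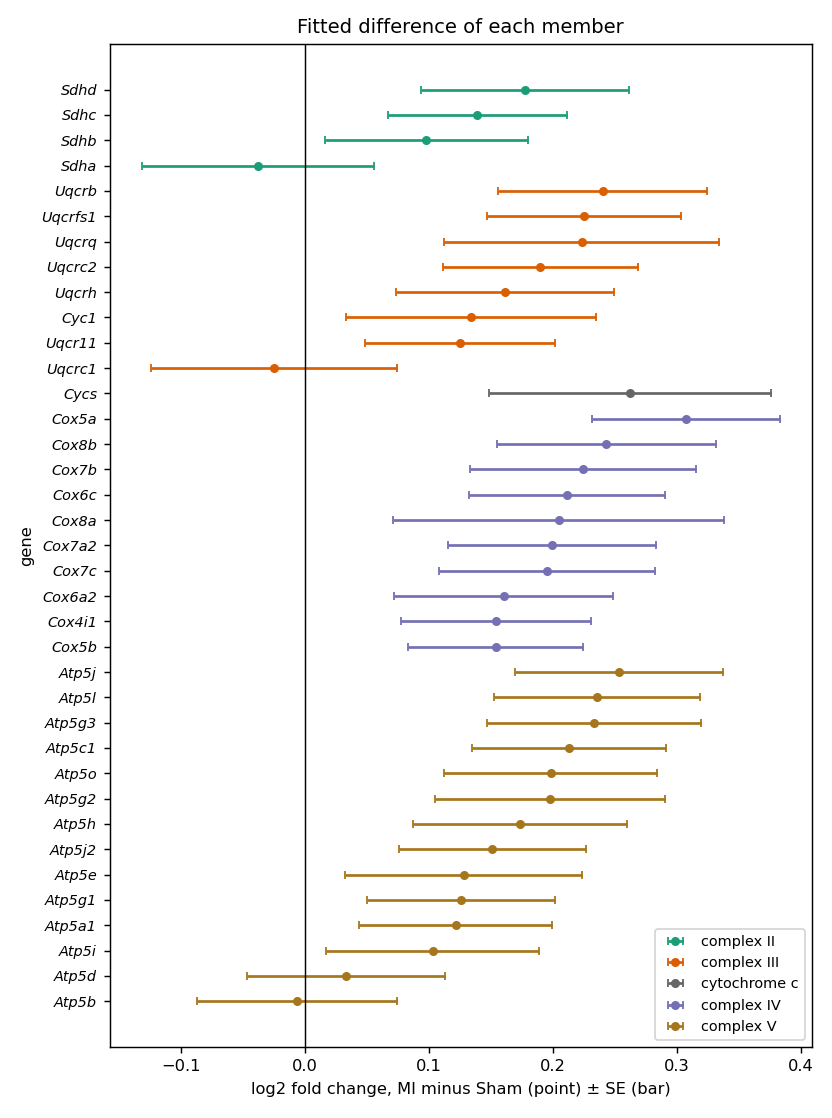
Fitted log2 fold change of each tested member, MI minus Sham (horizontal axis; point), with its SE (bar), by gene (vertical axis) and coloured by complex. Of the 37 points 34 lie to the right of 0, the farthest being Cox5a at 0.31, and Sdha, Uqcrc1 and Atp5b lie at or just left of 0.

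Most members tended to be high or low in the same animals. The Pearson r between a member and the mean of the other 36, over the 8 libraries, had a median of 0.90 and was over 0.8 for 26 members. It was below 0 for Sdha (-0.38), Uqcrc1 (-0.33) and Atp5b (-0.14), and 0.27 for Atp5d. These correlations describe libraries that share their scaling and include the difference between the groups, and they were not computed for other genes. MI replicate 1 was the highest of the 8 animals for 22 members, where it was highest for 16.9% of all tested genes. Sham replicate 7 was the lowest for 21 members, where it was lowest for 13.8% of all tested genes. In all 37 members the highest animal was an MI animal (51.9% of all tested genes), and in 33 the lowest was a Sham animal (46.1%). The exceptions were Sdha, Uqcrc1 and Atp5b, lowest in MI replicate 1, and Atp5d, lowest in MI replicate 4. The 4 MI and 4 Sham values did not overlap for 8 members, all higher in MI, where 2.09% of all tested genes showed this. For another 16 members a single animal, Sham replicate 5, stood in the way, at or above the lowest MI animal.

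**Figure D2:**
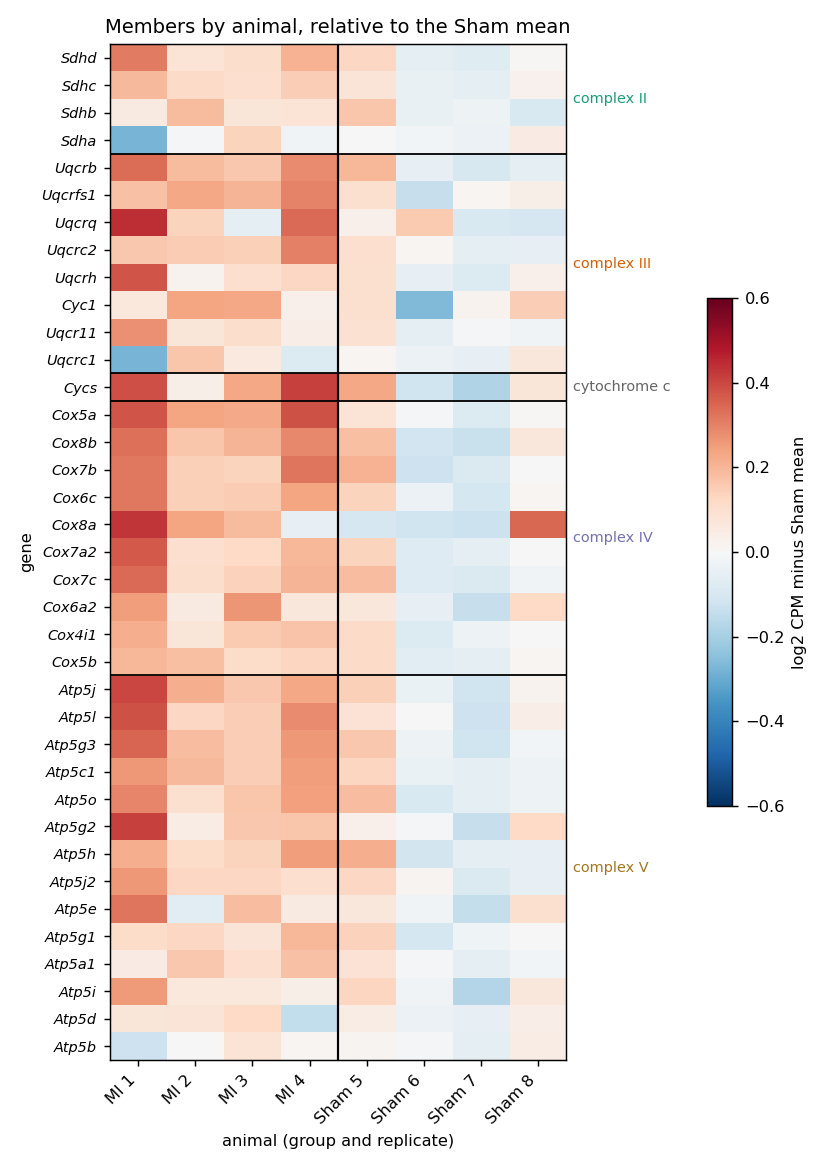
Colour shows log2 CPM minus the Sham mean for each tested member (rows, grouped by complex) in each animal (columns, MI replicates 1 to 4 and Sham replicates 5 to 8). The MI columns are mostly red and Sham replicates 6 and 7 mostly blue, while Sham replicate 5 is red for many genes and MI replicate 1 is blue for Sdha, Uqcrc1 and Atp5b.

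Animal numbers in the sample titles fall in a lower range (253 to 256: the first pair of MI replicates, 1 and 2, plus Sham replicate 5) and a higher one (275 to 288, the remaining 5 animals), which the labels do not call batches. Within the lower range the median difference of the members was 0.067 on the log2 scale, with 30 of 37 higher in MI, beside 49.3% of all tested genes. Within the higher range it was 0.19, with 36 of 37 higher, beside 49.0% of all tested genes. The lower range has 1 Sham animal, so its value carries no spread for Sham.

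Nuclear genes of the respiratory chain are known to share promoter elements, among them sites for NRF1 and for ETS factors such as GABP. RefSeq (build GRCr8, which is not the build of the counts) gave a window of 250 bases before to 50 after the annotated start for 32 of the 37 tested members. The NRF1 letters GCATGCGC, searched on both strands, were in 7 of the 32 windows (21.9%), against 5.07% of 8461 windows of tested genes and 2.66% of all 27457. The ETS letters CCGGAAG were in 13 windows (40.6%), against 18.1% of tested genes and 9.22% of all. The letters AAGATGGC of YY1 were in 7 (21.9%, against 5.80% and 3.44%), TGACGTCA of the cyclic AMP element in 2 (6.25%, against 3.17% and 1.91%), and GGGCGG of SP1 in 11 (34.4%, against 62.5% and 34.9%). At least 1 of the NRF1 and ETS words was in 17 of the 32 windows (53.1%), against 22.0% for tested genes. A match is a description of letters, not of a bound factor, and the search covers no variant of each word.

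The 120 bases just upstream of the annotated start are printed for 6 members to show what such windows look like, with NRF1 and ETS matches in capitals. Atp5o and Atp5g2 each carry the NRF1 word on both strands at once, as a palindrome, Atp5j and Uqcrc2 carry the ETS word, and Cox5a and Sdha carry neither in this stretch, although Cox5a had the smallest p of all members and Sdha lay at the Sham level.
Atp5o (now Atp5po), chr11:44657484-44657603, minus strand: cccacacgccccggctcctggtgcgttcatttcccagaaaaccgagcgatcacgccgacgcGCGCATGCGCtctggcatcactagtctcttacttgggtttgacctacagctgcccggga
Atp5g2 (now Atp5mc2), chr7:135678219-135678338, minus strand: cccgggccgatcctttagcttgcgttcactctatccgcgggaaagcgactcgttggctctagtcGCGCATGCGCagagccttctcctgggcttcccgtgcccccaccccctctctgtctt
Atp5j (now Atp5pf), chr11:37375102-37375221, minus strand: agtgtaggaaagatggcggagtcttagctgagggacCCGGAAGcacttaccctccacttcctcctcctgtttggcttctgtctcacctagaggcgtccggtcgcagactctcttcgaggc
Uqcrc2, chr1:184599120-184599239, plus strand: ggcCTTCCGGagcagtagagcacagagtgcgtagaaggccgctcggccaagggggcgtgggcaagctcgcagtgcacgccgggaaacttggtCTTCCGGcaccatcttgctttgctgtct
Cox5a, chr8:66818164-66818283, plus strand: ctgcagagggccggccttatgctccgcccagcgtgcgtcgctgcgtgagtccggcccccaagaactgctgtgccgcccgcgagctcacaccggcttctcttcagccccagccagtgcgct
Sdha, chr1:30764433-30764552, plus strand: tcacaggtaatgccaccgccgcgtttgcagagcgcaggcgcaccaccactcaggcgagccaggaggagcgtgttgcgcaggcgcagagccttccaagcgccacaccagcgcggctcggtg

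Complex II had the smallest median log2 fold change of the 4 complexes, 0.12, with 3 of 4 genes above 0 and 0 at an unadjusted p under 0.05. Differences between complexes were not tested. For comparison with each complex, 48.7% of all tested genes lay above 0 and 3.67% were higher at an unadjusted p under 0.05. Sdhc, one of the membrane anchors that bind haem and ubiquinone, was at 1832, 1733, 1719 and 1771 CPM in MI replicates 1 to 4 and at 1687, 1551, 1538 and 1631 in Sham replicates 5 to 8. The 4 MI values lay above the 4 Sham values, and the log2 fold change was 0.14 ± 0.07 (SE; edgeR adjusted p = 0.639). Sdhc was also the member that followed the rest most closely, with r = 0.99 against the mean of the others over the 8 libraries. Sdhd, the other anchor, was at 1743, 1484, 1508 and 1621 CPM in MI against 1527, 1349, 1332 and 1411 in Sham. Only Sham replicate 5 reached into the MI range of Sdhd, and its log2 fold change was 0.18 ± 0.08 (adjusted p = 0.616). Sdhb, the iron-sulfur subunit, averaged 1618 ± 67.7 CPM in the MI animals and 1512 ± 123.0 in the Sham animals (SD, n = 4 each). Its log2 fold change was 0.10 ± 0.08 (adjusted p = 0.740), or 0.06 without MI replicate 2 and 0.15 without Sham replicate 5. Sdha, the flavoprotein that oxidises succinate, went another way: it was at 1719, 2069, 2292 and 2059 CPM in MI and at 2094, 2064, 2038 and 2162 in Sham. MI replicate 1 was the lowest and MI replicate 3 the highest of the 8 animals, and the log2 fold change was -0.04 ± 0.09 (adjusted p = 0.916), which turned to 0.03 without MI replicate 1.

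In complex III, 7 of 8 genes lay above 0 (median log2 fold change 0.18), and 3 had an unadjusted p under 0.05: Uqcrfs1, Uqcrb and Uqcrc2. Uqcrfs1, the Rieske iron-sulfur protein that passes electrons towards cytochrome c1, was at 1731, 1797, 1764 and 1879 CPM in MI against 1634, 1389.7, 1541 and 1569 in Sham. The groups did not overlap, and the log2 fold change was 0.23 ± 0.08 (adjusted p = 0.601). Uqcrc2, a core subunit that faces the matrix, was at 2325, 2314, 2294 and 2569 CPM in MI against 2229, 2095, 1998 and 2008 in Sham, again without overlap, with a log2 fold change of 0.19 ± 0.08 (adjusted p = 0.601). Uqcrb, a small subunit near the ubiquinone site, was at 247.6, 223.8, 218.8 and 238.7 CPM in MI against 225.2, 189.7, 183.2 and 188.4 in Sham. Sham replicate 5 lay within the MI values of Uqcrb, and the log2 fold change was 0.24 ± 0.08 (adjusted p = 0.601).

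Uqcrc1, the core subunit that pairs with Uqcrc2, lay at the Sham level on average. It was at 1293, 1759, 1635 and 1481 CPM in MI against 1583, 1532, 1515 and 1646 in Sham, with both the lowest and the highest animal in the MI group. The log2 fold change was -0.03 ± 0.10 (adjusted p = 0.951), or 0.04 without MI replicate 1. Cyc1, which carries the haem of cytochrome c1, was at 795.4, 894.9, 892.3 and 775.8 CPM in MI against 813.1, 634.0, 770.7 and 842.7 in Sham. The 2 groups of Cyc1 values interleave, and the log2 fold change of 0.13 ± 0.10 (adjusted p = 0.710) was 0.06 without Sham replicate 6. Of the small subunits, Uqcrq had a log2 fold change of 0.22 ± 0.11, Uqcrh 0.16 ± 0.09 and Uqcr11 0.13 ± 0.08. Each of these 3 was highest in MI replicate 1, and without that animal their values were 0.14, 0.08 and 0.07.

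Cytochrome c, Cycs, is the soluble carrier between complexes III and IV. It was at 734.0, 575.5, 659.6 and 746.1 CPM in MI against 660.4, 517.0, 495.6 and 590.8 in Sham, a log2 fold change of 0.26 ± 0.11 (adjusted p = 0.601). MI replicates 1 and 4 were the highest, while MI replicate 2 lay below Sham replicates 5 and 8. RefSeq names several pseudogenes of Cycs. For this gene and 20 further tested members (21 in all have at least 1 named pseudogene) the counting could have divided or lost reads.

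Complex IV had the largest median of the 4 complexes, 0.20 on the log2 scale, with 10 of 10 tested genes above 0 and 6 at an unadjusted p under 0.05. Without MI replicate 1 the order changed, with 0.14 for complex IV and 0.15 for complex III. Cox5a, a matrix-side subunit that binds a thyroid hormone metabolite, was at 1002, 909.4, 903.9 and 1006 CPM in MI against 817.2, 765.2, 729.1 and 775.9 in Sham. The lowest MI animal was above the highest Sham animal, by the clearest margin among the members, and the log2 fold change was 0.31 ± 0.08 (edgeR unadjusted p = 0.00193, adjusted p = 0.601). Cox6c, a small membrane subunit, was at 669.7, 592.8, 596.9 and 633.2 CPM in MI against 588.8, 524.5, 498.5 and 540.7 in Sham, without overlap, though MI replicate 2 and Sham replicate 5 nearly met. Its log2 fold change was 0.21 ± 0.08 (adjusted p = 0.601). Cox4i1, the subunit through which ATP slows the enzyme, was at 1577, 1424, 1509.5 and 1522 CPM in MI against 1466, 1277, 1325 and 1354 in Sham, a log2 fold change of 0.15 ± 0.08 (adjusted p = 0.627). Sham replicate 5 was again the 1 Sham animal within the MI range. The remaining structural subunits had log2 fold changes of 0.22 for Cox7b, 0.20 for Cox7c and 0.15 for Cox5b, with adjusted p from 0.601 to 0.608 in edgeR.

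Complex IV has subunits in paired forms, one of heart and skeletal muscle and one found more widely. The muscle form Cox8b was at 517.5, 462.1, 474.6 and 503.8 CPM in MI against 466.8, 380.0, 375.9 and 431.7 in Sham, a log2 fold change of 0.24 ± 0.09 (adjusted p = 0.601). The muscle form Cox6a2 was at 1007, 878.4, 1017 and 884.8 CPM in MI against 886.7, 816.7, 766.9 and 918.6 in Sham, a log2 fold change of 0.16 ± 0.09 (adjusted p = 0.643). Sham replicate 5 overlapped the MI values of Cox8b, and Sham replicates 5 and 8 those of Cox6a2. The wider form Cox8a was at 48.9, 42.8, 41.5 and 35.2 CPM in MI against 34.0, 33.5, 33.3 and 46.3 in Sham, a log2 fold change of 0.20 ± 0.13 that was 0.33 without Sham replicate 8 and 0.12 without MI replicate 1. The wider form Cox7a2 was at 132.6, 110.4, 111.9 and 118.0 CPM in MI against 112.7, 97.3, 99.2 and 102.8 in Sham, a log2 fold change of 0.20 ± 0.08 (adjusted p = 0.601). Cox6a1, the wider form of Cox6a2 and not itself a listed member, averaged 66.7 ± 10.8 CPM in the MI animals and 61.0 ± 5.53 in the Sham animals (SD, n = 4 each).

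The balance between paired forms was compared within each animal, as the log2 CPM of one gene minus that of its partner, which removes library scaling. Transcript lengths were not available, so only the change of a ratio between groups is read, not the ratio itself. For Cox6a2 to Cox6a1 the ratio was 3.83 ± 0.27 in the MI animals and 3.79 ± 0.05 in the Sham animals (SD, n = 4 each), a difference of 0.04 (exact two-sided permutation p = 0.943). MI replicate 3, at 4.23, stood above the other 7 animals, and without it the difference was -0.09. For Cox8b to Cox8a the ratio was 3.54 ± 0.20 against 3.5 ± 0.23, a difference of 0.05 (exact permutation p = 0.83). The groups overlapped in both pairs, and neither difference exceeded the spread between animals.

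In ATP synthase, 13 of 14 tested genes lay above 0 (median log2 fold change 0.16), and 5 had an unadjusted p under 0.05. The catalytic head is built of alpha and beta subunits. Atp5a1, the alpha subunit, was at 6528, 7074, 6772 and 7143 CPM in MI against 6708, 6265, 6071 and 6248 in Sham, a log2 fold change of 0.12 ± 0.08 (adjusted p = 0.679). Atp5b, the beta subunit that holds the catalytic sites, was at 7498, 8189, 8664 and 8241 CPM in MI against 8273, 8139.9, 7881 and 8444 in Sham. MI replicate 1 was the lowest and MI replicate 3 the highest for Atp5b, and the log2 fold change was -0.0064 ± 0.0804 (adjusted p = 0.986), which was 0.03 without MI replicate 1. Atp5c1, the gamma subunit that turns within the head, was at 2714, 2593, 2507 and 2697 CPM in MI against 2478, 2199, 2178 and 2214 in Sham. Its groups did not overlap, and the log2 fold change was 0.21 ± 0.08 (adjusted p = 0.601). The delta and epsilon subunits of the central stalk, Atp5d and Atp5e, had log2 fold changes of 0.03 ± 0.08 and 0.13 ± 0.10. Atp5d was at 0.09 without MI replicate 4, its lowest animal, and at 0.0072 without MI replicate 3. Atp5e was at 0.05 without MI replicate 1 and 0.08 without Sham replicate 7.

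Among the stalk and membrane subunits, 2 had groups without overlap, Atp5j and Atp5l. Atp5j, coupling factor 6 of the outer stalk, was at 637.3, 560.9, 540.1 and 567.6 CPM in MI against 532.5, 468.8, 443.9 and 489.4 in Sham. Its groups did not overlap, and the log2 fold change was 0.25 ± 0.08 (unadjusted p = 0.0119, adjusted p = 0.601 in edgeR). Atp5l, the membrane subunit g, was at 450.0, 376.1, 382.2 and 420.9 CPM in MI against 367.3, 344.3, 316.7 and 355.4 in Sham, also without overlap, with a log2 fold change of 0.24 ± 0.08 (adjusted p = 0.601). Atp5o, the oligomycin sensitivity protein that joins the outer stalk to the head, had a log2 fold change of 0.20 ± 0.09, and Atp5h, subunit d of that stalk, 0.17 ± 0.09. The membrane subunits Atp5j2 and Atp5i, known as f and e, had 0.15 ± 0.08 and 0.10 ± 0.09, and Atp5i was at 0.04 without Sham replicate 7 and equally without MI replicate 1.

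Atp5g1, Atp5g2 and Atp5g3 encode the same mature c subunit, the proton-carrying ring, behind different import sequences. Atp5g3 was at 1837, 1640, 1598 and 1725 CPM in MI against 1614, 1414, 1329 and 1429 in Sham, a log2 fold change of 0.23 ± 0.09 (adjusted p = 0.601). Atp5g2 was at 394.0, 306.0, 331.7 and 333.0 CPM in MI against 302.9, 295.2, 269.5 and 322.7 in Sham, a log2 fold change of 0.20 ± 0.09 (adjusted p = 0.616), or 0.12 without MI replicate 1. Atp5g1 was at 672.4, 680.5, 657.4 and 715.5 CPM in MI against 685.2, 578.6, 612.6 and 621.5 in Sham, a log2 fold change of 0.13 ± 0.08 (adjusted p = 0.661). Sham replicate 5 lay inside the MI range of Atp5g3 and Atp5g1, and Sham replicate 8 inside that of Atp5g2. The log2 ratio of Atp5g1 to Atp5g3 was -1.32 ± 0.09 in the MI animals and -1.21 ± 0.07 in the Sham animals (SD, n = 4 each), a difference of -0.11 (exact two-sided permutation p = 0.114). Without MI replicate 1 this difference was -0.063. The ratio of Atp5g2 to Atp5g3 differed by -0.04 (exact permutation p = 0.571). Adjusted over the 4 pairs tested, the p was 0.457 for Atp5g1 to Atp5g3 and 0.943 for each of the other three, and the smallest p that 70 arrangements of the animals allow is 0.0286.

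**Figure D3:**
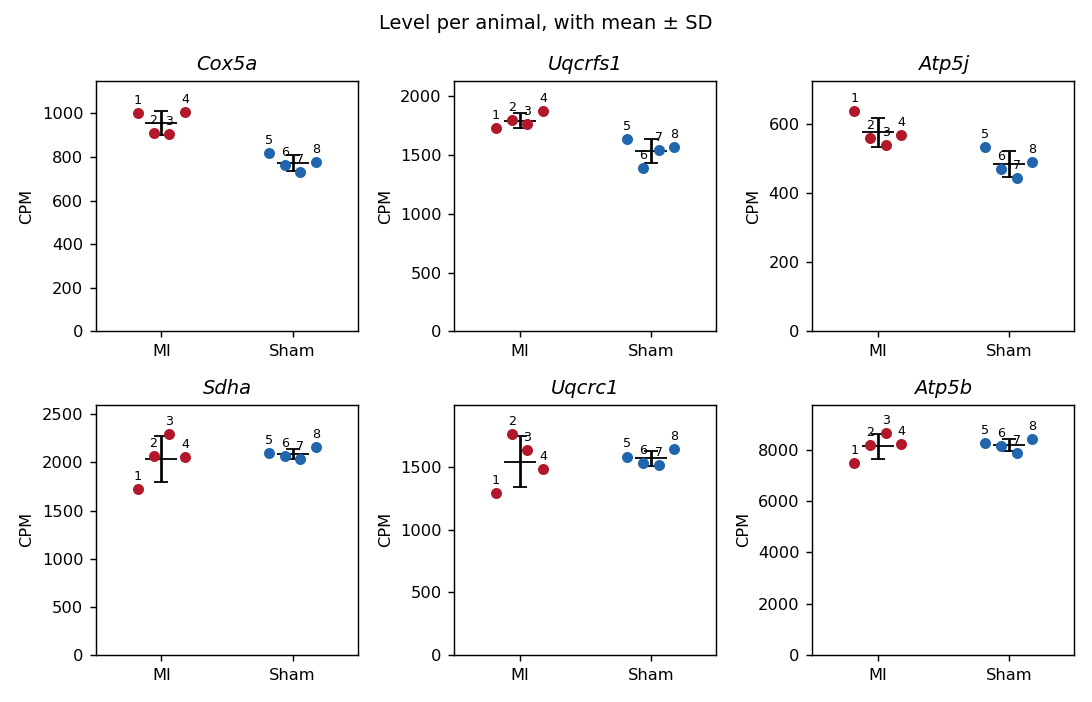
CPM (vertical axis, from 0) in each animal for 3 members whose groups did not overlap (top) and the 3 members at or below 0 (bottom), with points numbered by replicate and black bars for the mean ± SD of 4 animals. MI replicate 1, with 1719 CPM of Sdha, 1293 of Uqcrc1 and 7498 of Atp5b, is the lowest of the 8 animals in each lower panel.

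By complex, the mean log2 CPM of the tested genes placed Sham replicate 5 beside or within the MI animals each time. For complex IV the 4 MI animals were at 8.83, 8.66, 8.68 and 8.71 and the Sham animals at 8.62, 8.44, 8.42 and 8.57, so that every MI animal was above every Sham animal. For complex III the values were 9.30, 9.26, 9.23 and 9.27 against 9.20, 9.05, 9.06 and 9.11, also without overlap. For complex V they were 9.71, 9.58, 9.61 and 9.63 against 9.59, 9.44, 9.39 and 9.49, with MI replicate 2 just under Sham replicate 5. For complex II they were 10.74, 10.76, 10.78 and 10.78 against 10.76, 10.63, 10.62 and 10.67, with MI replicate 1 below Sham replicate 5. Without scaling, the members together held 4.51%, 4.65%, 4.36% and 4.70% of the counts in MI replicates 1 to 4, and 4.43%, 3.90%, 4.18% and 4.34% in Sham replicates 5 to 8. On these plain shares MI replicate 3 lay below Sham replicate 5, so the groups overlapped. After TMM scaling the summed levels were 45225 to 46371 CPM in MI and 40247 to 44561 CPM in Sham, without overlap.

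**Figure D4:**
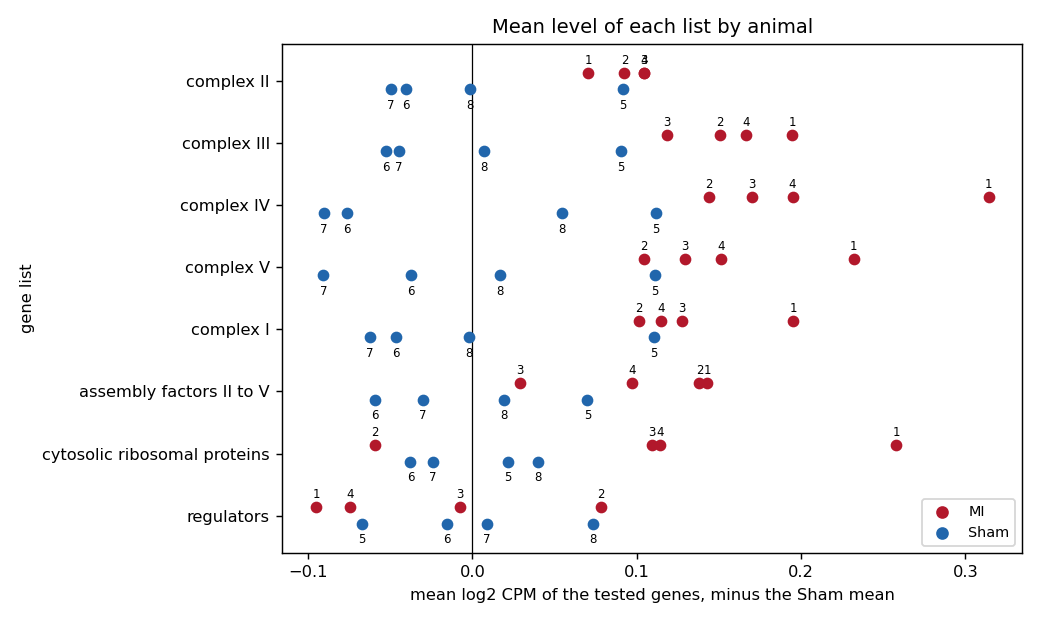
Mean log2 CPM of the tested genes of each list minus its Sham mean (horizontal axis) in each animal, numbered by replicate, for complexes II to V and 4 other lists (vertical axis). In complexes III and IV all 4 MI points lie right of the 4 Sham points, while MI replicate 2 is left of every Sham animal for ribosomal proteins and the regulators do not separate.

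Further genes tied to these complexes gave smaller or mixed values, and 0 of them passed the edgeR test at an adjusted p under 0.05. Of 10 tested subunits and isoforms outside the member list, 7 lay above 0 and the median difference was 0.13 on the log2 scale, with 3 higher and 1 lower at an unadjusted p under 0.05. At that threshold 3.67% of all tested genes were higher and 4.47% lower, and 48.7% lay above 0. Atpif1, the inhibitor of ATP synthase, averaged 68.6 ± 3.04 CPM in the MI animals and 56.1 ± 3.61 in the Sham animals (SD, n = 4 each), without overlap (log2 fold change 0.29 ± 0.08, adjusted p = 0.601). Usmg5, a small ATP synthase subunit, had 0.24 ± 0.09. Atp5sl, which despite its symbol is known as an assembly protein of complex I (Dmac2), was lower in every MI animal than in any Sham animal, at 57.1 ± 4.34 against 68.4 ± 2.21 CPM (-0.26 ± 0.08, adjusted p = 0.601). Among all 10522 tested genes, 259 were lower in MI without overlap and 220 were higher without overlap. Of 25 tested assembly factors, 22 lay above 0, with a median of 0.10 and 2 higher at an unadjusted p under 0.05. Tmem70, needed to build ATP synthase, averaged 417.4 ± 9.49 CPM in the MI animals and 348.2 ± 18.7 in the Sham animals, without overlap (0.26 ± 0.07, adjusted p = 0.601), while Cox16 and Higd2a, both of complex IV, had 0.25 ± 0.11 and 0.19 ± 0.10.

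Transcription factors and coactivators of mitochondrial genes lay on both sides of 0. Of 14 tested, 5 lay above 0 (median log2 fold change -0.02), and 0 had an unadjusted p under 0.05. Gabpa, the DNA-binding part of the ETS factor GABP, had 0.14 ± 0.07 (49.4 ± 1.77 against 44.8 ± 1.07 CPM, without overlap, adjusted p = 0.639), the coactivator Pprc1 -0.23 ± 0.17 and the fatty acid receptor Ppara -0.14 ± 0.12. Other mitochondrial proteins, of the outer and inner membranes and the matrix, had 10 of 11 above 0 and a median of 0.10, led by the chaperonin Hspe1 (0.20 ± 0.09), the outer membrane channel Vdac3 (0.18 ± 0.09) and the phosphate carrier Slc25a3 (0.15 ± 0.08). Of 33 tested genes of complex I, 31 lay above 0, beside 48.7% of all tested genes. Of the 31, 14 were higher at an unadjusted p under 0.05, beside 3.67% of all tested genes. The median of complex I was 0.17, led by Ndufab1 (0.27 ± 0.08), Ndufb5 (0.24 ± 0.08) and Ndufs5 (0.30 ± 0.10). No difference between complex I and the members was tested.

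Complex I had its highest mean log2 CPM in MI replicate 1 (8.18) and its lowest in Sham replicate 7 (7.92). The other mitochondrial proteins named above had the same extremes, at 9.62 and 9.39. Of the 37 members, 22 were highest in MI replicate 1 and 21 were lowest in Sham replicate 7, not always the same members. In the lists that follow, the highest and lowest animals were not the same throughout. Sham replicate 7 had the lowest mean log2 CPM for slow-fibre (10.40), red blood cell (3.92), fibroblast (6.78) and Schwann cell markers (2.22). MI replicate 2 was the lowest for ribosomal proteins, adipocyte and macrophage markers, and MI replicate 4 for fast-fibre and skeletal muscle markers. The part of any of these lists in the members' difference was not tested. Cytosolic ribosomal protein genes lay above 0 in 47 of 51 cases, beside 48.7% of all tested genes. Their median difference was 0.12 on the log2 scale. MI replicate 1 was the highest at 5.80 mean log2 CPM and MI replicate 2, at 5.48, the lowest of the 8. Slow-fibre markers, whose fibres are rich in mitochondria, had 6 of 10 above 0 and a median of 0.0093, with summed levels of 26563 to 30233 CPM in MI and 25617 to 30708 in Sham. Their log2 fold changes ran from -0.40 ± 0.21 for Myh7 to 0.21 ± 0.09 for Myl2. Skeletal muscle markers, some of them also in the fibre lists, had 8 of 10 below 0 and a median of -0.10, with 0 at an unadjusted p under 0.05 in edgeR. Fast-fibre markers had 5 of 10 above 0, with sums of 48186 to 76249 CPM in MI and 52803 to 78316 in Sham. MI replicate 1, lowest for Sdha, Uqcrc1 and Atp5b, was also the lowest of the 8 animals for the myosin heavy chains Myh7 (2283 CPM) and Myh2 (2980 CPM) and the Z-disc gene Actn2 (2799 CPM). Other muscle genes went the other way. MI replicate 1 was the highest of the 8 animals for the fast-fibre marker Tnni2 (8144 CPM). It was the highest MI animal for the slow-fibre marker Tnnt1 (4598 CPM). Red blood cell genes had 6 of 6 tested above 0 and a median of 1.10, with sums of 369.1 to 806.5 CPM in MI and 236.0 to 378.6 in Sham. All 6 had an edgeR unadjusted p under 0.05, beside 3.67% of all tested genes higher at that threshold, and an edgeR adjusted p of 0.601. DESeq2 called 5 of the 6, among 14 genes it called over all genes. Red blood cell genes were lowest among MI animals in replicate 1, where most members were highest. Fibroblast markers had 4 of 6 above 0, with sums of 1823 to 3283 CPM in MI and 1686 to 2355 in Sham, and Schwann cell markers 4 of 5, with 113.8 to 156.9 and 89.1 to 129.1 CPM. Adipocyte markers had 6 of 7 above 0, with sums of 212.8 to 460.8 CPM in MI and 176.2 to 252.0 in Sham. Macrophage markers had 8 of 8 tested below 0 (94.4 to 162.7 CPM against 102.9 to 240.7), with Sham replicate 7, the animal lowest for most members, at the top.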

How the data were processed

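Diaphragm RNA from 8 rats (4 MI, 4 Sham) was sequenced, 1 library per animal. The authors deposited raw read counts per gene symbol. Build rn5 and the programs TopHat2, TopHat, Cufflinks, bcl2fastq and STAR 2.5.0a are named in the submitters' processing notes, without roles. Which program counted, on which annotation, and how reads with several matches were handled is not given in the sources used here. Per the labels' protocols, libraries came from a SMARTer ultra-low-input kit and a KAPA kit, for which no strand information is stated, so overlapping genes cannot be told apart.

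Members were taken by symbol. The members and the other lists were chosen with earlier results of these data known, so no p-value is adjusted over a list. Named with values by animal are the 3 genes of each complex with the smallest p, the fixed genes Sdha, Sdhb, Uqcrc1, Uqcrfs1, Cyc1, Cycs, Cox4i1, Cox5a, Atp5a1 and Atp5b (Sdhb as mean and SD), and the isoform pairs. Other members are given by fold change, and other lists by their 3 genes with the smallest p. Marker genes and the animals singled out were chosen after their values were seen.

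All genes were fitted in edgeR 4.0.16 (R 4.3.3): TMM, filterByExpr, robust quasi-likelihood F test, two-sided, Benjamini-Hochberg over 10522 genes, threshold 0.05. The SE is the size of the log2 fold change divided by the square root of F. Log2 CPM used a prior count of 2. The pairs used an exact permutation test. Member counts per library ran from 305 to 204280, and the median SE was 0.084 for members and 0.14 for all genes. The median spread within a group was 0.11 on the log2 scale for members and 0.20 for all genes. The procedure was tested on simulated data with differences larger than that of any member, so it does not show how differences this small fare. Alternatives were RLE factors, library totals, no filter, 1 CPM in 4 libraries, DESeq2 1.42.0, limma-voom (limma 3.58.1), no robust estimation, the title number range as a term, a threshold of 0.1, a prior count of 0.5, and each library left out. The Cox7a1 pair and a comparison by protein length were planned and not run, since Cox7a1 had no row and no protein table was given. All 41 symbols matched RefSeq genes, 26 as current symbols and 15 as older ones.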

Additional observations from a re-analysis of the deposited data

Results flagged for a closer look

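In 7 of 92 sets of 4 animals examined (each tested member, the members together, the 4 complexes and the isoform ratios, in each group), 1 animal stood far from the other 3, with a gap to its neighbour, as a share of the range of the 4, above Dixon's 95% critical value. Chance alone gives about 1 in 20 such sets, and the sets share animals. MI replicate 1 stood above the other MI animals for Atp5i (gap 0.868 of the range) and Atp5j2 (0.839), and below them for the ratio of Atp5g1 to Atp5g3 (0.930). MI replicate 4 stood above for Uqcrc2 (0.881). Sham replicate 5 stood above the other Sham animals for Uqcrb (0.832) and Atp5c1 (0.874), and Sham replicate 8 for Cox8a (0.938).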

How the results depend on the processing

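Of the 37 members, 34 kept the sign of their log2 fold change in all 16 alternative fits. The exceptions lay near 0: with 1 animal left out Sdha ran from -0.096 to 0.029 and Uqcrc1 from -0.098 to 0.045, each above 0 only without MI replicate 1. Atp5b ran from -0.033 to 0.026, above 0 without MI replicate 1 and, at 0.0092, without Sham replicate 8. A term for the title number range put Atp5b at 0.0056. The number of members above 0 stayed between 34 and 37, and their median between 0.13 and 0.21. Members at an unadjusted p under 0.05 numbered 15, beside 8.14% of all tested genes. With 1 animal left out they ran from 3 (without Sham replicate 7, beside 4.87%) to 20 (without Sham replicate 5, beside 9.33%). With the title number range as a term they numbered 9, beside 5.61%. The cause was not tested. With DESeq2, 14 genes were called over all genes and 1 member, Cox5a (log2 fold change 0.31, adjusted p = 0.0463). Of the 14, 5 were on the list of red blood cell genes. With 1 animal left out, edgeR called 0 or 1 genes over all genes (1 without MI replicate 1 and 1 without MI replicate 3) and 0 members. The isoform ratios near 0 changed sign with 1 animal left out: Cox6a2 to Cox6a1 ran from -0.090 to 0.10, Cox8b to Cox8a from -0.049 to 0.14 and Atp5g2 to Atp5g3 from -0.085 to 0.0040. Atp5g1 to Atp5g3 stayed below 0, from -0.13 to -0.063. Each leave-one-out ratio is a value with no test. No paired analysis was possible because the labels number the 8 animals separately, so that MI and Sham share no replicate number. The lowest count of a tested member in any library was 305, for Cox8a.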
